A study of Silurus meridionalis with 18 samples.

Results

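Insulin, glucagon, somatostatin and cortistatin are peptide hormones that vertebrates cut from larger precursor proteins, and the levels of the 4 genes that encode them are described here across 18 tissues of adult southern catfish, Silurus meridionalis. The 4 genes were taken by their locus tags, which the deposited annotation names insulin preproprotein (C0J45_21548), glucagon isoform 1 precursor (C0J45_22159), somatostatin precursor (C0J45_11186) and cortistatin precursor (C0J45_14423), and all 4 were found among the 25390 genes of the deposited expression table. Each tissue was represented by 1 library of polyadenylated RNA from adult fish of a benthic habitat, and the labels give no sex, strain, age in years or number of fish behind a library. No treatment or genotype was compared. The tissues were Brain, Olfactory_bulb, Retina and Telecephlon (the labels' spelling of the telencephalon, the forebrain), grouped below as the 4 neural tissues, and Pancreas, Intestine, Liver, Gill, Head_kidney, Heart, Kidney, Mandibular_barbel, Maxillary_barbel, Muscle, Ovary, Skin, Spleen and Testis. The labels do not say which regions the Brain library holds, or whether it includes the olfactory bulb or the telencephalon.

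Insulin is made by the beta cells of the pancreatic islets and drives the uptake and storage of glucose. Glucagon, from the islet alpha cells, drives glucose release from the liver. The glucagon precursor is cut differently in endocrine cells of the gut, where it yields glucagon-like peptides. Somatostatin, from islet delta cells and from neurons, inhibits the release of other hormones and dampens neuronal activity. Cortistatin is a close relative of somatostatin that binds the same receptors and is known mainly from neurons. Ray-finned fishes carry several somatostatin genes.

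Levels are given in FPKM as the authors deposited them, that is, fragments scaled to gene length and library depth. A gene was called detected at an FPKM of at least 1 in any tissue, which 22197 genes reached. With 1 library per tissue there is no replicate error, no difference was tested, and the order of close levels cannot be set against a spread. The estimated depth was 48470000 to 51260000 fragments in 10 libraries, Brain and Pancreas among them, 20260000 to 22710000 in 6, Olfactory_bulb, Telecephlon, Retina and Intestine among them, 9550000 in Muscle and 6370000 in Skin. Tissue and depth cannot be told apart between these sets. In bulk tissue, fewer cells of a type and less RNA per cell cannot be told apart either. Marker lists went with the labels: 20 of 22 detected models of exocrine pancreas genes were highest in Pancreas, and 16 of 16 of hepatocyte genes in Liver. In Intestine 13 of 20 of enterocyte genes were highest, and in a neural tissue 27 of 28 of neuron genes. Of all detected genes, 0.455% were highest in Pancreas, 3.32% in Liver, 5.12% in Intestine and 34.3% in a neural tissue.

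In the deposited FPKM, each of the 4 genes was concentrated in a single library. Insulin and glucagon were highest in Pancreas, somatostatin in Telecephlon and cortistatin in Olfactory_bulb, and each gene had between 91.52% and 99.78% of its summed FPKM over the 18 tissues in that library. With rescaled libraries the lowest such share was 73.58%, for somatostatin with the libraries rescaled to the same upper quartile. All 4 were tissue-enriched, which here means that FPKM reached 10 in the highest tissue and that FPKM + 1 there was 5 or more times its value in the next tissue. Of all 25390 genes 7.51% met this. The share was 0.236% for enrichment in Pancreas, 0.165% for Telecephlon and 0.177% for Olfactory_bulb. The call was made on the deposited FPKM and was not repeated on rescaled libraries. At the same upper quartile, somatostatin was at 842.8 in Telecephlon and 290.3 in Pancreas, which is less than 5 times. Tau, a specificity index that is 0 for a gene at an even level across tissues and 1 for a gene found in only 1, was 0.991 for insulin, 0.937 for glucagon, 0.927 for somatostatin and 0.915 for cortistatin on log2(FPKM + 1), against a median of 0.613 over all detected genes.

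**Figure D1:**
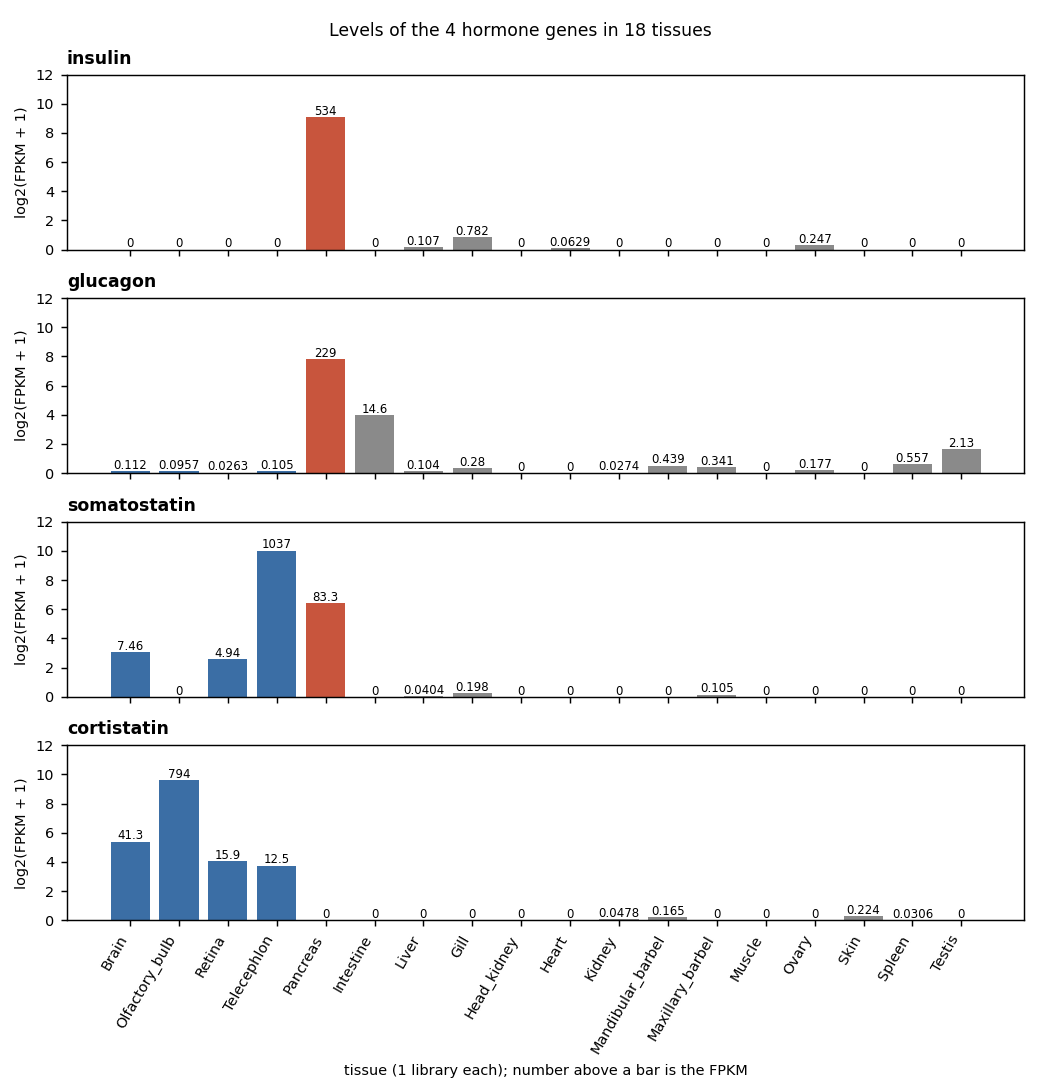
Levels of insulin, glucagon, somatostatin and cortistatin in the 18 tissue libraries, as bars of log2(FPKM + 1) with the FPKM printed above each bar; neural tissues are blue, Pancreas is red and other tissues are grey. Insulin stands in Pancreas at 534.0, glucagon in Pancreas at 229.0 with a lower bar in Intestine at 14.6, somatostatin in Telecephlon at 1037 and Pancreas at 83.3, and cortistatin in Olfactory_bulb at 793.6 with lower bars in the other neural tissues.

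The insulin gene model lies on chromosome 25 from 15106375 to 15106893 on the plus strand of the authors' assembly, with 2 coding exons, 327 bp of coding sequence and a partial annotation. Insulin was at an FPKM of 534.0 in Pancreas, where about 8879 fragments stood behind it and it ranked 113th of all genes in the library. The level was 0.782 in Gill, 0.247 in Ovary, 0.107 in Liver and 0.0629 in Heart. The gene was listed at 0 in the other 13 tissues, the 4 neural tissues and Intestine included. Insulin was thus detected in Pancreas alone at the threshold of 1, with 98.65% of detected genes at a lower tau.

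The Pancreas level of insulin was 683 times that of Gill, a log2 ratio of 8.23 on FPKM + 1, which ranged from 7.46 to 10.17 with the libraries rescaled to the same sum or the same upper quartile. About 13 fragments stood behind the Gill value, and between 1 and 4 behind those of Ovary, Liver and Heart. Gill was at 1.014 with the libraries rescaled to the same sum without mitochondrial and hemoglobin genes, so detection in Pancreas alone holds for the deposited FPKM. The insulin model lies inside a larger model on the opposite strand, C0J45_21546, named GTPase IMAP family member 8, which runs from 15095303 to 15134342 and shares no coding exon with it. That gene was at 46.8 in Gill and 23.5 in Spleen, its highest tissues, where insulin was at 0.782 and listed at 0 respectively, and at 1.45 in Pancreas. Whether reads were assigned by strand is not known, and the part of this gene in the low insulin values was not tested.

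Glucagon showed a broader pattern. Its model lies on chromosome 26 from 17299414 to 17305079 on the minus strand, with 6 coding exons and 822 bp of coding sequence. The level was 229.0 in Pancreas, from about 9573 fragments and at rank 151 in the library, 14.6 in Intestine from about 269 fragments, and 2.13 in Testis from about 88. Spleen stood at 0.557, Mandibular_barbel at 0.439, Maxillary_barbel at 0.341, Gill at 0.280, Ovary at 0.177, Brain at 0.112, Telecephlon at 0.105, Liver at 0.104, Olfactory_bulb at 0.0957, Kidney at 0.0274 and Retina at 0.0263. Glucagon was listed at 0 in Head_kidney, Heart, Muscle and Skin. So 3 tissues reached an FPKM of 1, the digestive organs Pancreas and Intestine above the rest, and Pancreas was 15.7 times Intestine, a log2 ratio of 3.89 on FPKM + 1 (5.72 with the libraries rescaled to the same upper quartile).

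The share of the Pancreas level that other libraries held was read beside that of trypsinogen (C0J45_20044), the precursor of a digestive protease made by the exocrine cells, which was at 130200 in Pancreas. Intestine held 0.000362% of the Pancreas level of trypsinogen and 6.36% of that of glucagon. In Testis the shares were 0.000115% and 0.931%. In Gill, trypsinogen was at 0.000254% of its Pancreas level and insulin at 0.146%. Liver differed from these, with trypsinogen at 56.97, or 0.0438% of Pancreas, beside 0.02% for insulin and 0.0452% for glucagon. In Liver, 14 of the 22 exocrine models were at an FPKM of at least 1, beside 10501 of the 22197 detected genes. Their summed level there was 292.2, and the part of these genes in the Liver values of insulin and glucagon was not tested.

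The file names a further glucagon model, C0J45_03031, on chromosome 3 from 19515434 to 19516214, which is partial, with 3 coding exons. It was at 22.96 in Pancreas, 8.56 in Retina, 4.59 in Brain and 1.67 in Gill, and at most 0.142 elsewhere. In Pancreas it made up 9.11% of the summed level of both glucagon models, and C0J45_22159 made up 90.9%. In Intestine 99.4% of the sum came from C0J45_22159, whereas in Retina 99.7% and in Brain 97.6% came from C0J45_03031. The Pancreas thus held both models, the Intestine nearly only the member gene, and the Retina and Brain nearly only the other. Whether reads are shared between these copies was not tested. A neighbour of C0J45_22159, 1972 bp away, is a model of dipeptidyl peptidase 4 (C0J45_22160), the enzyme that inactivates glucagon-like peptides. It was at 356.2 in Intestine, 21.36 in Kidney and 0.0350 in Pancreas.

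Somatostatin C0J45_11186 lies on chromosome 12 from 2965462 to 2966181 on the minus strand, with 2 coding exons and 345 bp of coding sequence. Its level was 1037 in Telecephlon, where it ranked 28th of all genes with about 7852 fragments, and 83.3 in Pancreas, at rank 204 with about 1461 fragments. Brain was at 7.46 with about 125 fragments and Retina at 4.94 with about 38. Gill at 0.198, Maxillary_barbel at 0.105 and Liver at 0.0404 had 1 to 3 fragments each, and the gene was listed at 0 in the other 11 tissues, among them Olfactory_bulb and Intestine. Telecephlon was 12.5 times Pancreas, a log2 ratio of 3.62 on FPKM + 1. It was 4.74 with the libraries rescaled to the same sum and 1.53 with the same upper quartile, and the order of the tissues was kept. The gene was thus high in 1 neural library and in the pancreas, and listed at 0 in Olfactory_bulb.

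Cortistatin C0J45_14423 lies on chromosome 16 from 4814315 to 4814999 on the minus strand, with 2 coding exons and 330 bp of coding sequence. The level was 793.6 in Olfactory_bulb, at rank 75 with about 5371 fragments, 41.3 in Brain with about 661, 15.9 in Retina with about 116 and 12.5 in Telecephlon with about 90. Skin at 0.224, Mandibular_barbel at 0.165, Kidney at 0.0478 and Spleen at 0.0306 had at most about 1 fragment. The gene was listed at 0 in the other 10 tissues, Pancreas included. Cortistatin was therefore detected in the 4 neural tissues and nowhere else at the threshold of 1, with Olfactory_bulb 19.2 times Brain, a log2 ratio of 4.23 on FPKM + 1.

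Set side by side, somatostatin and cortistatin took opposite places in the forebrain libraries. In Telecephlon the FPKM of somatostatin was 83.1 times that of cortistatin. In Olfactory_bulb cortistatin was at 793.6 and somatostatin was listed at 0. Brain had 5.54 times and Retina 3.21 times as much cortistatin as somatostatin, and in Pancreas somatostatin was at 83.3 with cortistatin listed at 0. These ratios are within a library, so a scaling of the libraries does not move them. Over the 18 tissues, Pearson's r of log2(FPKM + 1) was 0.281 between the 2 genes, 0.869 between insulin and glucagon, 0.453 between insulin and somatostatin and 0.345 between glucagon and somatostatin. Each of these rests on the few libraries where a gene is high.

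The deposited annotation names 6 models of the somatostatin family, cortistatin included, and a different one led in each of Telecephlon, Olfactory_bulb, Brain and Pancreas. In Telecephlon C0J45_11186 made up 98.2% of the family's summed level. In Olfactory_bulb cortistatin made up 99.5%. In Brain somatostatin 6 (C0J45_14478, on chromosome 16 as well, from 6500357 to 6501337) was at 63.8 and made up 56.4%, followed by cortistatin with 36.6% and C0J45_11186 with 6.6%. Retina had a more even mixture, with cortistatin at 59.7%, C0J45_11186 at 18.6%, somatostatin-1-like (C0J45_06305) at 12% and somatostatin 6 at 9.81%.

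In Pancreas the leading family member was somatostatin 2 precursor (C0J45_17488, chromosome 20), from a gene lineage described from fish pancreas, at 785.1 and 90.4% of the family, beside C0J45_11186 with 9.59%. Somatostatin 2 precursor was listed at 0 in all 4 neural tissues, and its next level was 1.53 in Intestine. The model named somatostatin-2 (C0J45_11187), the neighbour of C0J45_11186 at a distance of 14039 bp, was not detected, with 0.943 in Ovary as its highest level. Of the precursors in the Pancreas library, somatostatin 2 was thus above insulin at 534.0, which was 2.33 times glucagon and 6.41 times C0J45_11186.

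**Figure D2:**
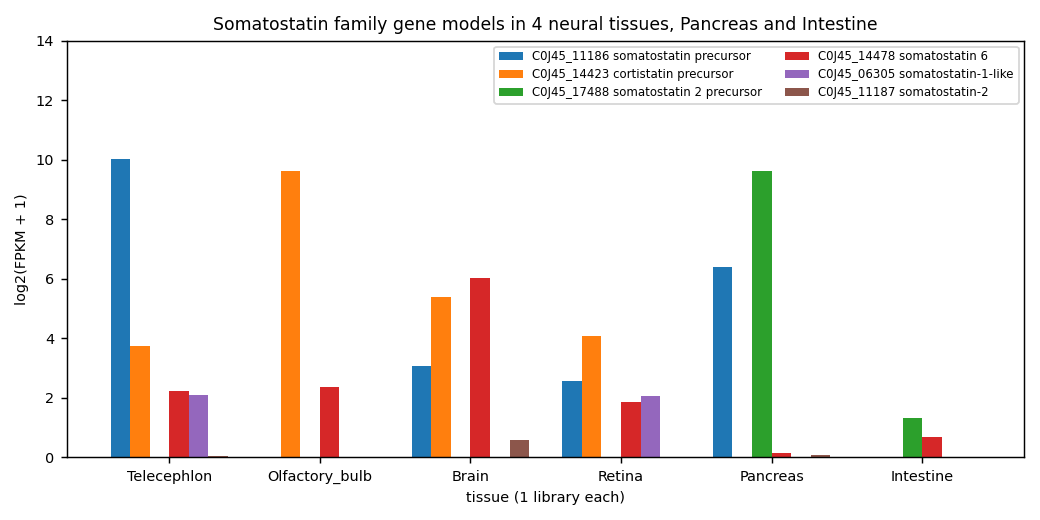
The 6 gene models of the somatostatin family in the 4 neural tissues, Pancreas and Intestine, as bars of log2(FPKM + 1), 1 library each. C0J45_11186 leads in Telecephlon at 1037, cortistatin in Olfactory_bulb at 793.6 and Retina at 15.9, somatostatin 6 in Brain at 63.8, and somatostatin 2 precursor in Pancreas at 785.1 and Intestine at 1.53.

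Other islet and gut hormones were set beside the 4 genes from a list of islet hormones with 14 models, which holds the 4 genes as well. Of these models 12 were detected and 6 were highest in Pancreas, the tissue where 0.455% of all detected genes were highest. The 6 include insulin and the glucagon model C0J45_22159, which were already known to be highest there. Besides insulin, both glucagon models and somatostatin 2 precursor, these were peptide YYb (C0J45_06735), a gut and islet peptide that slows digestion, at 209.0, and a model of ghrelin (C0J45_00910), a hormone of hunger, at 5.46. Peptide YY-A (C0J45_12767) was highest in Telecephlon at 61.85, with 0 listed in Pancreas. Another ghrelin model (C0J45_00917) was at 56.57 in Ovary and 7.28 in Pancreas. Islet amyloid polypeptide, which beta cells of mammals release with insulin, was not detected, with 0.454 in Retina as its highest level. Of 26 detected enteroendocrine peptide models, 5 were highest in Intestine, where 5.12% of all detected genes were highest. More of them, 13, were highest in a neural tissue, beside 34.3%, and 4 were highest in Pancreas, both glucagon models among them. With the highest model of each symbol alone, 1 of 13 was highest in Intestine. The highest of the 5 in Intestine were models of PACAP (C0J45_05988, 40.67), VIP (C0J45_08914, 34.15) and proenkephalin (C0J45_17484, 30.07), neuropeptides of gut nerves, above the 14.6 of glucagon there.

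The islet hormones were a small share of the Pancreas library. Insulin, both glucagon models, somatostatin, somatostatin 2 precursor and peptide YYb, 6 models in all, summed to 1863 FPKM in Pancreas, or 0.185% of its summed FPKM. The 25 exocrine models summed to 605000, or 60.1%. The upper quartile of genes with an FPKM of at least 1 was 4.42 in Pancreas, the lowest of all libraries, and 29.0 in Ovary, the highest. The median log2(FPKM + 1) over all detected genes was 0.31 in Pancreas, 0.239 in Muscle, 0.249 in Ovary, 0.611 in Testis and 2.48 in Telecephlon. In Pancreas 25.9% of the detected genes reached an FPKM of 1. Levels of most genes were thus low in Pancreas, as they were in Muscle and Ovary, and the part of the exocrine share in this was not tested.

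Islet transcription factors establish islet cells and keep them as they are. The median log2(FPKM + 1) of their 39 detected models in Pancreas was 0.304, near the 0.31 of all detected genes there. In Pancreas 12 of the 39 reached an FPKM of 1, beside 25.9% of all detected genes, 8 were listed at 0, and 2 had their highest level, beside a background of 0.455%. The highest of them in Pancreas were gata4 (C0J45_16619) at 14.85, foxa2 (C0J45_20166) at 14.38, gata6 (C0J45_17524) at 13.63 and an mnx1 model named homeo box HB9 like a (C0J45_03073) at 11.86, factors of foregut and pancreas development. Of these models, those of foxa2 and mnx1 had Pancreas as their highest tissue. A further foxa2 model (C0J45_08005) was highest in Liver, with 8.07 in Pancreas. A further mnx1 model named homeo box HB9 like a (C0J45_20959) was at 14.64 in Intestine and listed at 0 in Pancreas. With the highest model of each symbol alone, 1 of 28 was highest in Pancreas. With the libraries rescaled to the same upper quartile, 5 models of the list were. The beta cell factor pdx1 (C0J45_18205) was at 0.758 in Pancreas and 1.46 in Intestine. Neurod1, isl1 and nkx2-2 were at 0.726, 0.921 and 0.847 in Pancreas and at 287.5 in Retina, 11.76 in Retina and 9.29 in Brain, their highest tissues. In all, 16 of the 39 models were highest in a neural tissue, a share near the 34.3% of all detected genes.

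Hormone precursors are cut by convertases, trimmed by carboxypeptidase E and stored in granules with secretogranins and chromogranins. Of 34 detected models of this processing and granule list, 26 were highest in a neural tissue, beside 34.3% of all detected genes, and 20 of these in Telecephlon, beside 12.8%. None was highest in Pancreas, where only 0.455% of all detected genes were. In Telecephlon, where somatostatin stood at 1037, carboxypeptidase E (C0J45_22884) was at 697.8, secretogranin-2 at 474.6, the convertase chaperone 7B2 (C0J45_20054) at 425.5, the convertases pcsk2 (C0J45_02058) at 82.16 and pcsk1 (C0J45_19194) at 62.25, and chromogranin-A at 76.22. The Pancreas levels of the same genes were 9.02, 0.732, 2.08, 2.13, 0.684 and 0.00957. In Pancreas 13 of the 34 models reached an FPKM of 1, beside 25.9% of all detected genes, and the list's median log2(FPKM + 1) was 0.724, beside 0.31. The highest were ero1b in its 2 models (C0J45_08782 and C0J45_02429), which forms disulfide bonds in newly made proteins, at 25.19 and 16.21. Carboxypeptidase E was thus far below insulin in Pancreas, at 9.02 beside 534.0, and nearer to somatostatin in Telecephlon, at 697.8 beside 1037. Its level did not follow somatostatin in other neural libraries. Carboxypeptidase E was at 384.1 in Retina, with somatostatin at 4.94, and at 354.9 in Olfactory_bulb, with somatostatin listed at 0.

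**Figure D3:**
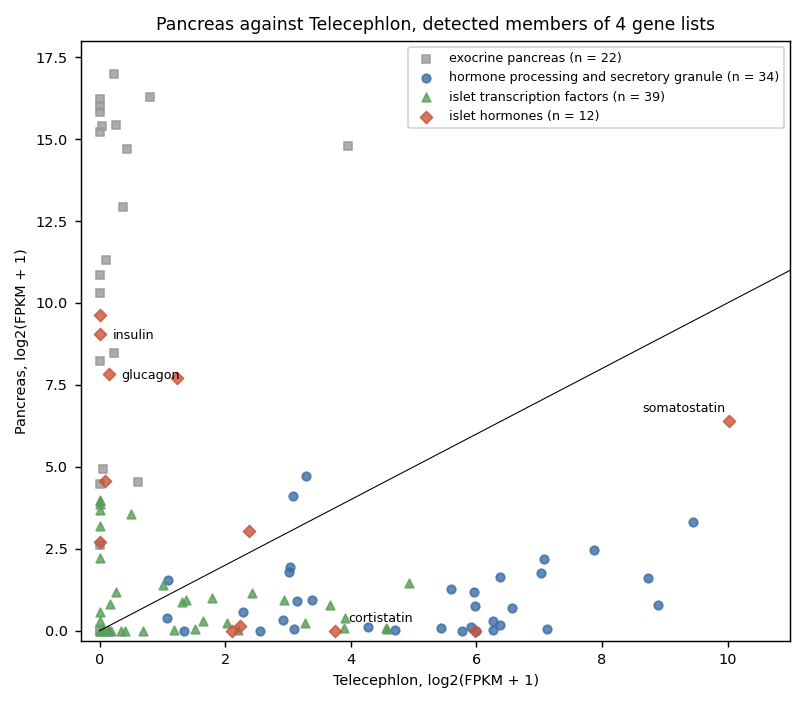
FPKM in Pancreas against Telecephlon, both as log2(FPKM + 1), for detected models of 4 gene lists; each point is a gene model, and the line marks equal levels. Insulin (534.0 and 0), glucagon (229.0 and 0.105) and exocrine genes lie at the left edge, somatostatin (83.3 and 1037) at the far right, cortistatin (0 and 12.5) on the horizontal axis, and most processing and granule genes below the line.

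A set of islet endocrine markers with 19 models (pdx1, mnx1, neurod1, nkx2-2, pax6, isl1, insm1, pcsk1, pcsk2, scg5 and ptprn) summed to 23.5 FPKM in Pancreas. Of the 19 models 5 were at an FPKM of at least 1 there, a share near the 25.9% of all detected genes, and 5 were listed at 0. The marker sum was 43.0 in Intestine, 692 in Telecephlon and 537 in Retina, and 0.323 in Liver. Neuron markers summed to 1.82 in Pancreas, beside a somatostatin level of 83.3. Of 28 neuron models 0 were at an FPKM of 1 there, beside 25.9% of all detected genes, and 8 were listed at 0. Exocrine markers summed to 17.11 in Telecephlon, with 1 of 22 models at an FPKM of 1 and 11 listed at 0. Of the 22197 detected genes, 16020 reached an FPKM of 1 in Telecephlon.

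Glucose sensing genes of the beta cell had a median log2(FPKM + 1) of 0.307 in Pancreas, near the 0.31 of all detected genes, and 7 of 21 detected models reached an FPKM of 1 there, beside 25.9%. Glucokinase (C0J45_15207), the glucose sensor, was at 1.02 in Pancreas and 1.016 in Heart, levels that cannot be ranked without replicates, and it was the only 1 of the 21 models with Pancreas first, beside 0.455% of all detected genes. The glucose transporter slc2a2 was highest in Liver in both models (116.8 and 84.14) and at 2.73 and 2.04 in Pancreas. The subunits of the potassium channel that couples glucose to insulin release, abcc8 (C0J45_09936) and kcnj11 (C0J45_09938), were at 0.283 and 0.126 in Pancreas. Their highest levels were 18.54 in Brain and 11.2 in Muscle, with 18.06 and 4.72 in Telecephlon. A further abcc8 model (C0J45_12538) was at 12.37 in Retina and listed at 0 in Pancreas.

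Receptors of the 4 hormones were spread over other tissues. The insulin receptor model insr a (C0J45_05574) was at 7.13 or more in 13 tissues, with 19.72 in Gill as the highest level and 7.33 in Liver. It was at 4.85 in Skin, 4.23 in Pancreas, 1.83 in Muscle, 1.06 in Testis and 0.129 in Ovary. A further model, insr b (C0J45_08679), was at most 1.76, in Kidney. Of 24 detected models of insulin and IGF receptors and signalling, none was highest in Pancreas, beside 0.455% of all detected genes, and 3 were highest in Liver, beside 3.32%. The Liver count was 6 of 24 with the libraries rescaled to the same upper quartile, and 1 of 13 with the highest model of each symbol. The 3 models were igfbp2 in 2 models (180.9 and 37.93), a carrier of insulin-like growth factors, and igf2 (C0J45_21832, 46.73).

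The glucagon receptor model C0J45_18738 was at 8.02 in Liver, 6.96 in Gill, 4.25 in Intestine and 0.243 in Pancreas. The glucagon receptor-like model C0J45_20438 was at 21.67 in Gill, 11 in Liver, 3.82 in Kidney and 0.0861 in Pancreas. The receptor of glucagon-like peptide 2 (C0J45_06857), a growth signal of the gut lining, was at 15.12 in Intestine, the tissue with the next-highest glucagon level, and at most 0.403 elsewhere. The list of glucagon family receptors also holds dipeptidyl peptidase 4, which is not a receptor. In total 4 of its 12 detected models were highest in Intestine, dipeptidyl peptidase 4 (C0J45_22160) among them, and none in Pancreas. The shares of all detected genes were 5.12% and 0.455%.

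Of 8 somatostatin receptor models, 7 were detected and 5 of these were highest in a neural tissue, 4 in Telecephlon and 1 in Olfactory_bulb, beside 34.3%, 12.8% and 7.52% of all detected genes. With the highest model of each symbol alone, 1 of 3 was highest in a neural tissue. In Telecephlon, beside somatostatin, sstr2 (C0J45_13240) was at 12.83, sstr5 models C0J45_00169 and C0J45_13519 at 5.98 and 5.78, and sstr1 (C0J45_06026) at 1.90. In Olfactory_bulb, beside cortistatin, sstr1 (C0J45_08061) was at 10.52, with 4.96 in Telecephlon. The exceptions were an sstr2 model (C0J45_06800) at 16.96 in Liver and an sstr5 model (C0J45_20504) at 18.74 in Gill, 12.86 in Heart and 11.55 in Kidney. Every detected receptor model was below an FPKM of 1 in Pancreas, as most detected genes were, with 25.9% of them reaching it there. Somatostatin 2 precursor and somatostatin were at 785.1 and 83.3 in that library.

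**Figure D4:**
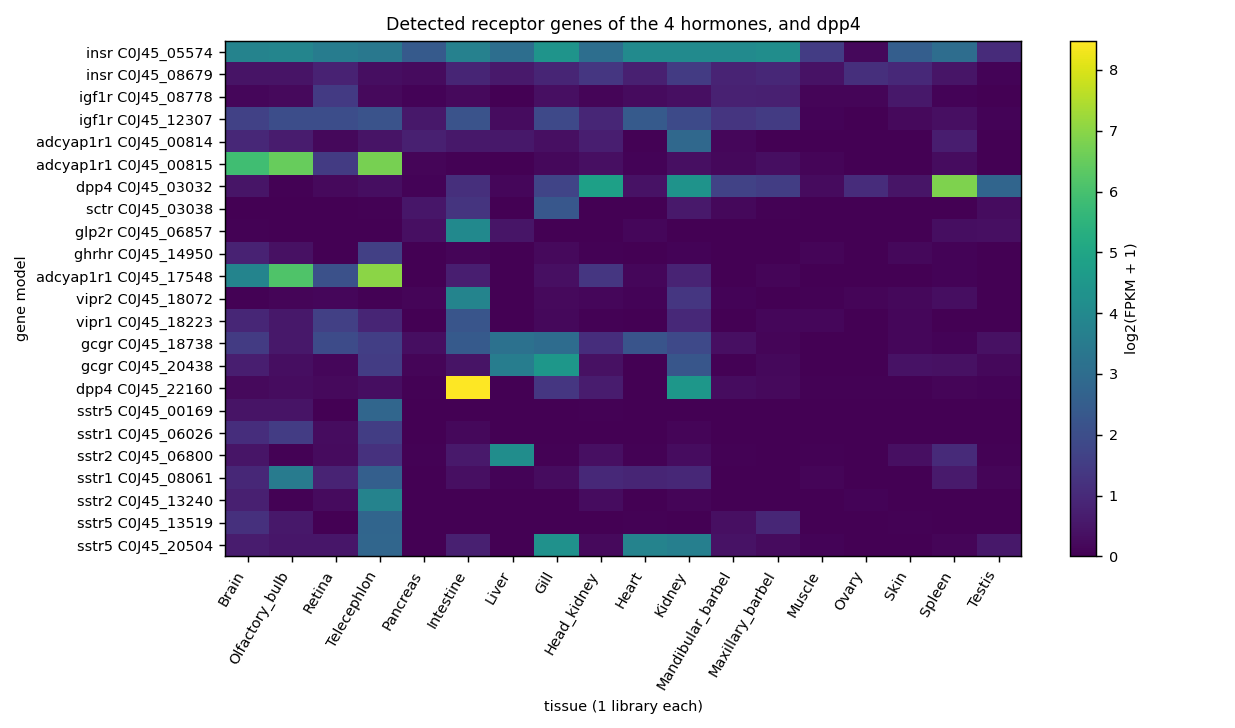
Detected receptor models of the 4 hormones and their relatives, and dipeptidyl peptidase 4, in the 18 tissues, as log2(FPKM + 1) by colour, 1 library per column. Insulin receptor a is at 7.13 or more in 13 tissues, dpp4 C0J45_22160 is brightest in Intestine at 356.2, glucagon receptors are brightest in Liver and Gill, and 5 of 7 somatostatin receptors in Telecephlon or Olfactory_bulb.

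Inhibitory neurons make somatostatin or cortistatin together with GABA in the mammalian forebrain, so genes of such neurons were compared. Of 41 detected models of this list, 27 were highest in a neural tissue, beside 34.3% of all detected genes. Of these, 12 were highest in Olfactory_bulb and 7 in Telecephlon, beside 7.52% and 12.8%. The GABA-making enzymes gad1 (C0J45_00895) and gad2 were at 191.5 and 106.7 in Olfactory_bulb and at 68.91 and 55.83 in Telecephlon. The GABA vesicle transporter slc32a1 was at 112.6 and 68.44. The ratio of Olfactory_bulb to Telecephlon was thus 2.78 for this gad1 model, 1.91 for gad2 and 1.64 for slc32a1, beside 63.6 for cortistatin, while somatostatin was listed at 0 in Olfactory_bulb. Other models of the list had other highest tissues. The list summed to 24680 FPKM in Muscle, beside 1553 in Olfactory_bulb, although 27 of the 41 models were listed at 0 in Muscle. Only 4 of the 41 reached an FPKM of 1 in Muscle, beside 6297 of the 22197 detected genes, and these 4 were highest there. The list holds parvalbumin (pvalb), and the share of parvalbumin in the Muscle sum is not given here. A further gad1 model (C0J45_02959) was at 30.27 in Brain, 26.55 in Telecephlon and 14.52 in Olfactory_bulb, and another (C0J45_18031) was highest in Gill, with 2.57 in Olfactory_bulb and 2.25 in Telecephlon. The homeobox gene lhx6 (C0J45_10395), a factor of inhibitory neurons in mammals, was at 6.71 in Maxillary_barbel, 5.07 in Telecephlon and 0.0494 in Olfactory_bulb. The homeobox genes dlx1, dlx2 in both models, dlx5 and dlx6, which specify forebrain inhibitory neurons, were highest in Olfactory_bulb, from 36.08 to 71.69. Thyrotropin-releasing hormone was at 476.7 in Olfactory_bulb and 43.23 in Telecephlon. The brain nitric oxide synthase nos1 (C0J45_22325) was at 10.35 in Telecephlon, 1.13 in Olfactory_bulb and 1.89 in Pancreas. That is the order that somatostatin took for its highest 2 tissues. Nos1 was the only 1 of the 41 models at an FPKM of at least 1 in Pancreas, beside 25.9% of all detected genes.

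Likeness to each of the 4 genes was measured as Pearson's r of log2(FPKM + 1) over the 18 tissues, across 22196 other detected genes. Such an r can rest on 1 high library, and all of the 50 named genes most like each hormone gene had the same highest tissue as it. Insulin was matched most closely by genes listed at or near 0 outside Pancreas: six-cysteine containing astacin protease 4 (C0J45_12010, r = 0.996, 18.19 in Pancreas), the cargo receptor of the secretory pathway tmed6 (C0J45_05247, r = 0.996, 66.99), the starch-digesting amylase-3 (C0J45_24666, r = 0.995, 297.7), complement C1q-like protein 4-like (C0J45_21582, r = 0.994, 275.3) and selenoprotein E (C0J45_22313, r = 0.994, 708.6). A value of at least 0.95 was reached by 45 genes. Amylase-3 is an exocrine enzyme, so a gene of another pancreatic cell type was among the 5 most like insulin in these libraries. With Spearman's correlation in place of Pearson's, 0 of the 5 genes stayed among the 5 for each of the 4 hormone genes.

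For glucagon 2 genes reached 0.95, and those most like it had a lower level in Intestine too. Hepatic triacylglycerol lipase-like (C0J45_01608, r = 0.975) was at 4219 in Pancreas and 185.2 in Intestine, the zinc finger protein Gfi-1 (C0J45_17467, r = 0.953) at 8.73 and 3.69, and homeo box HB9 like a (C0J45_03073, r = 0.943) at 11.86 and 8.29. The receptor of the gut hormone cholecystokinin, type A (C0J45_06242, r = 0.942), was at 28.42 and 0.986, and somatostatin 2 precursor (r = 0.926) at 785.1 and 1.53. All 5 were thus higher in Pancreas than in Intestine, as glucagon was.

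No gene reached 0.95 with somatostatin. Closest were nitric oxide synthase of brain (C0J45_22325, r = 0.924), Gpr7 (C0J45_14667, r = 0.893), a receptor of neuropeptides B and W in mammals, and the kappa-type opioid receptor (C0J45_05951, r = 0.892), followed by Rab-37-like (C0J45_13248, r = 0.882), a GTPase of vesicle transport, and the calcium sensor hippocalcin-like protein 1 (C0J45_20090, r = 0.860). Gpr7 and the opioid receptor were at 1.45 and 1.43 in Telecephlon and near 0.215 in Pancreas, whereas Rab-37-like was at 39.22 and 7.17 and hippocalcin-like protein 1 at 39.54 and 32.9. Without the Pancreas library 0 of these 5 genes stayed among the 5 most like somatostatin, and with a minimum FPKM of 5 in place of 1 there were 3. Leaving out Pancreas likewise left 0 of 5 for insulin and for glucagon.

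With cortistatin 51 genes reached 0.95, and those most like it were lower genes of the neural tissues. Down syndrome cell adhesion molecule a (C0J45_10546, r = 0.993), a guide of neuron wiring, was at 20.43 in Olfactory_bulb and at 3.85, 3.60 and 3.34 in Brain, Retina and Telecephlon. Complement C1q-like protein 3 (C0J45_04194, r = 0.991), a synapse protein, was at 24.45 in Olfactory_bulb, the calcium channel subunit alpha-2/delta-3 (C0J45_09069, r = 0.987) at 8.17, protocadherin beta-15-like (C0J45_10009, r = 0.985) at 7.28 and the RNA editase B2 (C0J45_04490, r = 0.984) at 11.38. None of these 5 exceeded 0.272 in any tissue outside the 4 neural ones, as cortistatin did not exceed 0.224.

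**Figure D5:**
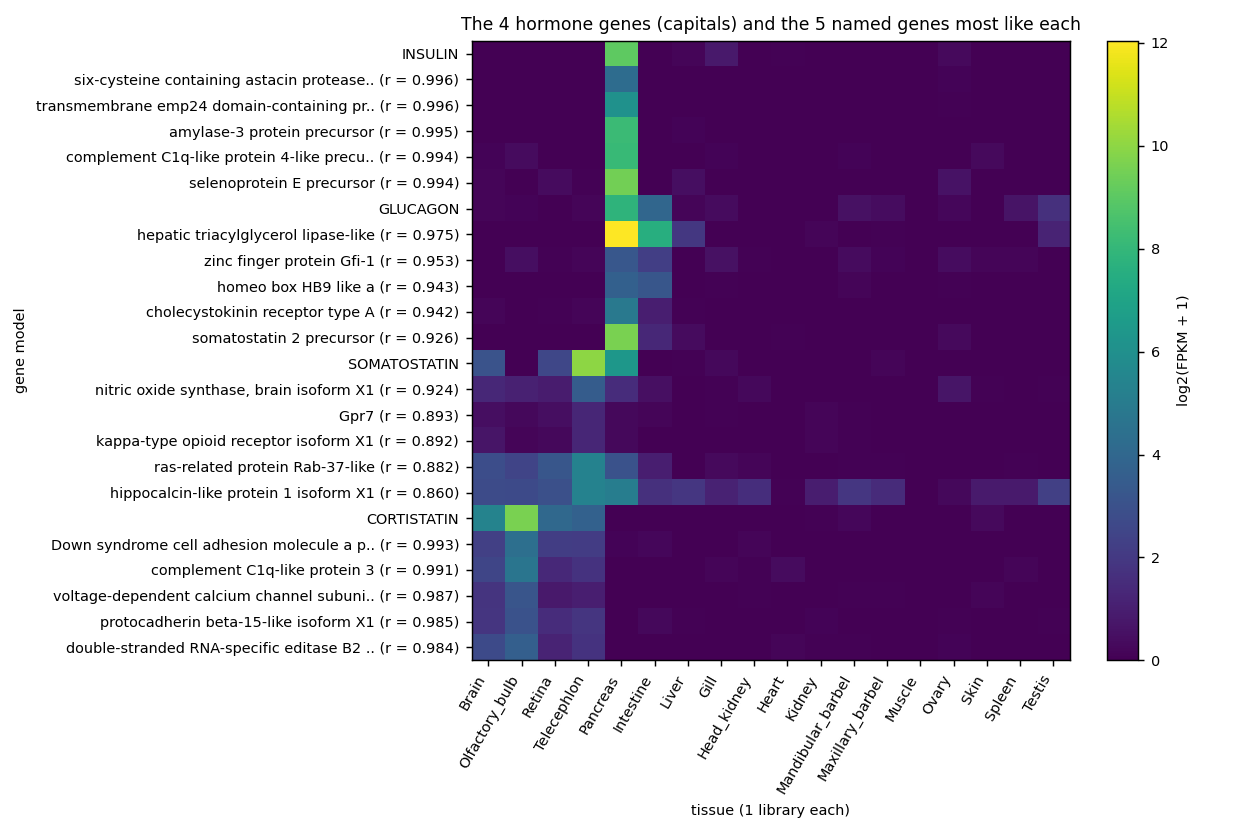
The 4 hormone genes (capitals) and the 5 named genes most like each by Pearson's r over 18 tissues, as log2(FPKM + 1) by colour, 1 library per column. The genes like insulin and glucagon are bright in Pancreas, with some of the glucagon set also in Intestine, those like somatostatin in Telecephlon, and those like cortistatin in Olfactory_bulb with lower levels in the other neural tissues.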

How the data were processed

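RNA was measured in 18 libraries, 1 per tissue, with tissues taken from the labels. Per the labels' protocols, RNA was extracted with Trizol, treated with DNase I and selected for poly(A) before paired-end libraries were made. StringTie 1.3.4d is named in the submitters' processing notes, and the aligner is not given in the sources used here, nor is the genome build. The authors' FPKM, normalized for gene length and library depth, were deposited for 25390 genes. A further deposited annotation gave names, coordinates (1-based, on the authors' assembly) and coding exons, whose summed lengths are all multiples of 3 (100%) and so hold coding length only. No locus tag matched the RefSeq gene table (0 matches).

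FPKM values are not counts and each tissue has 1 library, so no model was fitted. Depth was estimated by taking the commonest spacing of low values of FPKM multiplied by coding length as 1 fragment. Between 11.7% and 23.9% of these low values came within 0.02 of whole fragments, so whole reads were not recovered, fragment numbers are estimates, and no counting interval is given. Libraries were not rescaled, although their summed FPKM ran from 457883 to 1006540. Ratios, tau and correlations used a pseudocount of 1. No replicate or batch comparison was possible.

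The 4 genes and the 13 lists (214 symbols, of which 175 matched 304 models by protein name) were chosen with earlier results of these data known, and the name patterns were written after the deposited tables were opened. Genes named are the 4 hormone genes, the 5 most like each with a descriptive name, and up to 10 detected members of each list; neighbouring genes and trypsinogen were added. The calculations were tested on simulated data: in the call of tissue-enriched genes, 200 of 200 genes planted at 20-fold among 25390 were recovered with 0 others called. The planted genes lay well above the cutoffs, and the other genes were simulated at an even level across libraries. The simulation thus checks the calculation and cannot show how specific the call is in the real libraries. Python 3.11.15, numpy 2.4.6, pandas 2.3.3 and matplotlib 3.10.9 were used.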

Additional observations from a re-analysis of the deposited data

How the results depend on the processing

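Among 94 results recomputed under an alternative, 68 stayed within the tolerance (1.5 times for a ratio or a count, 0.05 for tau), 26 moved and 0 reversed. A reversal could be recorded only for the tissue orders and the log2 ratios, so the 0 says nothing about the other results. Counts were compared without the number of models behind them. The neuron list, from 27 of 28 to 16 of 16 models, was therefore labelled as moved. The order of the tissues at an FPKM of at least 1 was kept for all 4 genes with libraries rescaled to the same sum, to the same upper quartile, to the same sum without mitochondrial and hemoglobin genes, and to the same sum without the exocrine list, the last chosen after seeing the data. The log2 ratio of the highest tissue to the next for insulin was 9.24 with a pseudocount of 0.1, 7.46 at the same sum and 10.17 at the same upper quartile; for glucagon it was 5.72 at the same upper quartile, and for somatostatin 4.74 at the same sum and 1.53 at the same upper quartile, because Pancreas has the highest sum and the lowest upper quartile. Tau of glucagon was 0.857 with a pseudocount of 0.1. With Spearman correlation, 0 of the 5 most-like genes remained for each of the 4 genes, and 0 remained for insulin, glucagon and somatostatin without the Pancreas library; for somatostatin 3 remained with a minimum FPKM of 5.

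Counting only the highest model of each symbol leaves fewer models, and the count in the tissue named was then 3 of 6 for islet hormones, 1 of 28 for islet transcription factors, 16 of 22 for processing genes, 1 of 13 for insulin signalling, 1 of 3 for somatostatin receptors, 1 of 13 for enteroendocrine peptides, 17 of 24 for somatostatin neuron partners and 16 of 16 for neurons. At the same upper quartile, 5 islet transcription factors were highest in Pancreas and 6 insulin signalling models in Liver. With a minimum FPKM of 5, 0 of 19 glucose sensing models were highest in Pancreas. No paired analysis was possible because each tissue has 1 library. For the 4 hormone genes, values below an FPKM of 1 rest on about 23 fragments or fewer, the most being glucagon in Spleen. In a longer gene the same FPKM stands for more fragments at equal depth. Absence was not shown for genes listed at 0.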

Other observations

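Relatives of insulin had places of their own. Insulin-like growth factor I (C0J45_16100), a growth hormone mediator made mainly by the liver in mammals, was at 92.14 in Ovary, 2.21 in Retina and 0.364 in Liver, and listed at 0 in Pancreas. Insulin-like 5a (C0J45_00788), a gut hormone in mammals, was at 79.52 in Head_kidney and 73.92 in Intestine, and insulin-like 5b (C0J45_05622) at 2.82 in Intestine. Both were listed at 0 in Pancreas, the only library where insulin was detected.

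A model of cholecystokinin (C0J45_13441), a gut and brain peptide, was at 382.9 in Mandibular_barbel, 364.3 in Telecephlon, 86.14 in Olfactory_bulb and 2.67 in Intestine. These levels are from 1 library each and were not tested.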
